A study of Mus musculus with 6 samples.

Results

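Ibsp, Spp1 and Vegfa are genes that chondrocytes switch on late in hypertrophy, and the regions around them held 62 of the 99162 Jun peaks listed for mouse rib chondrocytes. The peaks were chosen by position: a peak belongs here if its midpoint lies on build mm9 in chr5:104640001-104900000, named the Ibsp and Spp1 window, or in chr17:46050001-46270000, named the Vegfa window. The first window is 260 kb long and held 30 peaks, and the second is 220 kb long and held 32. The rule uses no width or list place of a peak, but the members were chosen with earlier results of these data known.

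The list comes from ChIP-seq, in which DNA bound by a protein is pulled down with an antibody and sequenced, and regions with many reads are called peaks. Jun was precipitated from untreated rib chondrocytes of wild-type ICR mice at postnatal day 1, freshly released by enzyme digestion, and 1 library of input DNA from the same kind of cells was made beside the 1 Jun library. The question of the study was how Jun and other AP-1 proteins act with Sox9, the main regulator of the cartilage fate, when chondrocytes turn hypertrophic. The 4 RNA-seq libraries of the series, from Swiss Webster mice with a Col10a1mCherry reporter, were not analysed here. How many animals gave the chondrocytes is not stated, and no sorting before the precipitation is described, so peaks cannot be assigned to hypertrophic or to earlier chondrocytes. A list of positions holds no expression values, so the cell type could not be checked against marker genes.

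The list gives each peak a chromosome, a start and an end, and nothing about its height or its reads. The number of reads behind it is unknown, so a site missing from the list was not shown to be unbound. With 1 library there was no replicate, no peak has an error of its own, and no test between conditions was possible. The intervals below are 95% counting intervals. They treat peaks as independent, which close neighbours are not, and are therefore too narrow.

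Chondrocytes of the growth plate divide, enlarge into hypertrophic cells and calcify the matrix around them before blood vessels and bone-forming cells enter. Ibsp encodes bone sialoprotein and Spp1 encodes osteopontin, secreted acidic glycoproteins that bind mineral and, through an Arg-Gly-Asp motif, the integrins of attaching cells. Vegfa encodes vascular endothelial growth factor A, the secreted signal through which hypertrophic cartilage draws in blood vessels. Jun is a leucine zipper protein that pairs with Fos proteins or other family members to form AP-1, which binds DNA at TGANTCA, most often with C or G in the middle.

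In the RefSeq gene table of the later build GRCm38, the protein-coding genes around Ibsp and Spp1 stand in the order Dspp, Dmp1, Ibsp, Mepe, Spp1 and Pkd2. Dspp, Dmp1 and Mepe encode further secreted phosphoproteins of dentin, bone and osteocytes, and Pkd2 encodes polycystin 2, a cation channel. Around Vegfa the order is Mrpl14, 1600014C23Rik, Vegfa, Mrps18a and Rsph9. Mrpl14 and Mrps18a encode proteins of the mitochondrial ribosome, and Rsph9 a part of the radial spoke of motile cilia. Gene positions on mm9 were not used here, so the distance from a peak to the start of any of these genes was not determined, and a peak in a window may belong to any gene in or beside it.

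The promoters of the 3 genes are shown because they are the elements for which the windows are named. The sequences of the peaks themselves were not used here, since they need the mm9 genome. All 3 symbols matched the RefSeq promoter table for GRCm38.p6, from which the 250 bases before each gene's first annotated start were taken: chr5:104299037-104299286 on the plus strand for Ibsp, chr5:104434861-104435110 on the plus strand for Spp1 and chr17:46032378-46032627 on the minus strand for Vegfa. These positions are on GRCm38 and cannot be set against the mm9 positions of the peaks. Each is written 5′ to 3′ along its gene, and capitals mark matches on either strand to the motifs named below.
Ibsp: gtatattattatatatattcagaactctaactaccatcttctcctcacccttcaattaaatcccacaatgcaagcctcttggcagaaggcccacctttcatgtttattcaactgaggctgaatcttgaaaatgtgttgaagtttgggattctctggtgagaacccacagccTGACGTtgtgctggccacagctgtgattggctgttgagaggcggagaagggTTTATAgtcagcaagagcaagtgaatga
Spp1: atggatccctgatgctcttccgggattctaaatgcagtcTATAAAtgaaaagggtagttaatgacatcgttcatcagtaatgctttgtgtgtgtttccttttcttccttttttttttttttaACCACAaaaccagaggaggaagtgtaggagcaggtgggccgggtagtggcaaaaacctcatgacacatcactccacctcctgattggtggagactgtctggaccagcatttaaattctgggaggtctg
Vegfa: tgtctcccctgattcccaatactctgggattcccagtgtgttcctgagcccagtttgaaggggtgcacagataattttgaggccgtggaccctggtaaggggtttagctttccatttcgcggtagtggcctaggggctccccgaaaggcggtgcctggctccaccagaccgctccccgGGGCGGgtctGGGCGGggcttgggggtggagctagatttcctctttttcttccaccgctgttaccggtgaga

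None of the 3 stretches held the AP-1 motif TGANTCA, which 6.85% of the 27025 RefSeq promoters of this length held. The Ibsp stretch held TGACGT, the core of the cyclic AMP response element to which dimers of Jun with ATF proteins can also bind, from 79 to 74 bases before the start. That core was found in 6.52% of all promoters. Ibsp also held TATAAA, on the reverse strand, from 28 to 23 bases before its start, and Spp1 held it from 211 to 206 bases before. The share of all promoters with TATAAA was 13.0%.

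The Spp1 stretch held TGTGGT, the core bound by RUNX proteins such as Runx2, the regulator of hypertrophy and bone formation, on its reverse strand from 128 to 123 bases before the start, and 14.2% of all promoters held it. Vegfa differed in letters: its stretch held the GC box GGGCGG at 72 to 67 and again at 62 to 57 bases before the start, against 33.0% of all promoters with at least 1 match. Its bases were 59.2% G or C, against 43.6% in both Ibsp and Spp1 and a median of 52% over all promoters. The other motifs searched were AACAAT (SOX proteins), TAATTA (homeodomain proteins) and ACGTG (hypoxia-inducible factors), and none of the 3 stretches held them. The shares of all promoters with these were 9.62%, 4.91% and 16.5%. No match overlapped another in these stretches. A match is a description of letters and not a bound site, and its absence from 250 bases says nothing about Jun at the gene.

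Of 27 other genes of hypertrophy, mineralization and vessel entry, 22 had a promoter in the table. TGANTCA stood in 2 of the 22, those of Mmp13, the collagenase of hypertrophic cartilage, and Phospho1, a phosphatase that releases phosphate for mineral. That share, 9.09%, is near the 6.85% of all promoters. TGTGGT stood in 7 of the 22 (31.8%, against 14.2% of all promoters), those of Bglap, Enpp1, Mepe, Mmp13, Mmp14, Runx2 and Runx3. GGGCGG stood in 10 (45.5%, against 33.0%), TATAAA in 6 (27.3%, against 13.0%) and ACGTG in 6 (27.3%, against 16.5%). TGACGT stood in 3 (13.6%, against 6.52%), TAATTA in 2 (9.09%, against 4.91%) and AACAAT in 0, against 9.62%. These are counts of letters over a chosen list and were not tested.

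Both windows held more Jun peaks than most stretches of their length. The Ibsp and Spp1 window held 30 peaks, or 115 per Mb (77.8 to 165), against 40.7 per Mb over the autosomes, a ratio of 2.83. When the autosomes were cut into 9214 tiles of 260 kb, the tiles held a median of 6 peaks, with the central 50% between 1 and 16, and 8.12% held 30 or more. Of these tiles 1974 held no peak, and the median of the others was 10. The Vegfa window held 32 peaks, or 145 per Mb (99.5 to 205), 3.57 times the autosomal density. The 10892 tiles of 220 kb held a median of 5 peaks, with the central 50% between 1 and 14, and 4.32% held 32 or more. Here 2561 tiles held no peak, and the median of the others was 9. The fullest tiles held 143 and 135 peaks at these lengths, so both windows are well short of the extreme.

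**Figure D1:**
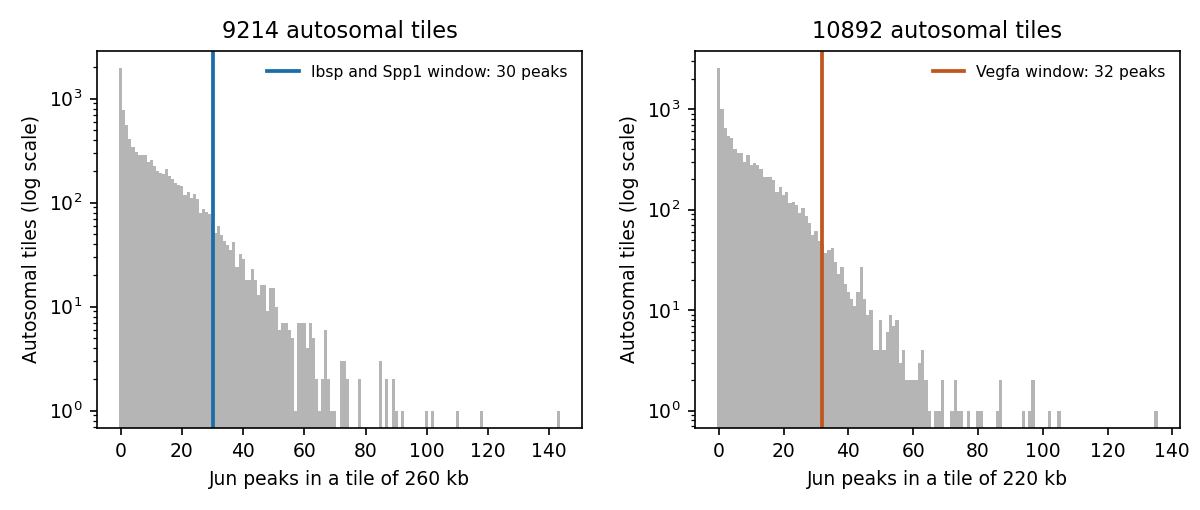
Numbers of Jun peaks in autosomal tiles of 260 kb (left) and 220 kb (right), with the number of tiles on a log scale; the coloured line marks the window of that length. The Ibsp and Spp1 window stands at 30 peaks against a median of 6, and the Vegfa window at 32 against a median of 5. Among tiles with at least 1 peak these medians are 10 and 9.

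Peaks covered 4260 bp, or 1.64%, of the Ibsp and Spp1 window, and 7.39% of the tiles of its length had at least as many bases under peaks. In the Vegfa window they covered 5401 bp, or 2.46%, and 2.41% of the tiles had as many. A median tile had 792 bp under peaks at 260 kb and 624.5 bp at 220 kb. The Vegfa window ranked higher than the Ibsp and Spp1 window by number of peaks and by covered bases. The difference between the windows was not tested, and their density intervals overlap.

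Neither window was an island of binding on both sides. Below the Ibsp and Spp1 window, towards lower coordinates, the flank of the same length held 26 peaks, while the flank above it held 2. The nearest peak below lay 0.860 kb outside the edge (chr5:104639118-104639164), only 0.886 kb from the first peak inside (chr5:104639992-104640062), whose centre was 0.026 kb within it. The nearest above lay 37.6 kb outside (chr5:104937561-104937662), and the last peak inside lay 5.53 kb from the edge (chr5:104894401-104894533). On this side the window thus ended within a sparse stretch.

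The Vegfa window lay in a richer neighbourhood, since the flank below held 44 peaks, more than the window itself, and the flank above held 19. The nearest peaks outside were chr17:46042685-46042807, at 7.26 kb below the lower edge, and chr17:46290497-46290554, at 20.5 kb above the upper edge. The first peak inside (chr17:46095199-46095276) began 45.2 kb into the window and the last (chr17:46266763-46266820) lay 3.21 kb from its end. The 2 flanks of the Vegfa window held 1 peak of 400 bp or wider between them, in the upper flank, and the window held 4.

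**Figure D2:**
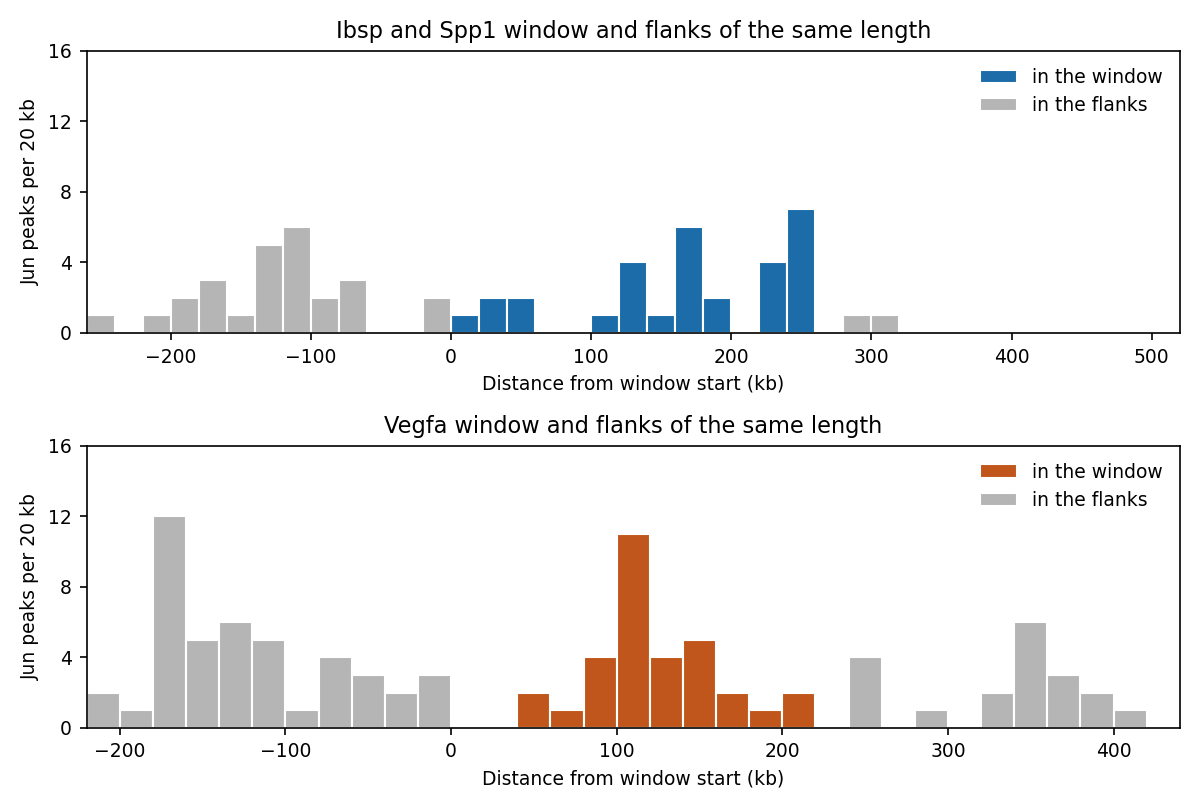
Jun peaks per 20 kb along each window (coloured) and the flanks of the same length (grey), by distance from the window start in kb. The Ibsp and Spp1 window reaches 7 peaks in its last 20 kb and only 2 peaks follow in the upper flank; the Vegfa window reaches 11 peaks from 100 to 120 kb, and its lower flank holds a bin of 12.

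Within the Ibsp and Spp1 window the peaks lay in scattered small groups. Joining peaks whose centres lay within 10 kb of each other gave 10 groups, of which 3 were lone peaks. Over the autosomes 18660 of 37573 groups were lone peaks. The fullest of these groups, with 7 peaks, spanned 12.2 kb at the upper end (chr5:104882311-104894533). Its peaks were 64, 112, 289, 75, 107, 167 and 133 bp wide in order of position. On the autosomes 6.72% of groups held 7 or more, and these groups held 30.9% of the peaks.

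The group with the widest peaks held 6 in 10.3 kb (chr5:104803482-104813807), and 9.03% of autosomal groups, with 36.2% of the peaks, held 6 or more. It began with peaks of 138 and 130 bp, the second of them chr5:104809755-104809884, and ended with one of 148 bp. Between these lay 3 peaks that overlapped in a chain. The first, chr5:104811957-104812312, was 356 bp wide and shared 55 bp with the second, chr5:104812258-104812443, which was 186 bp wide. The second shared 43 bp with the third, chr5:104812401-104812873, which at 473 bp was the widest peak of the window. Joined, these 3 peaks covered 917 bp, and no other peaks of either window overlapped.

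A group of 5 peaks spanned 18.0 kb (chr5:104756569-104774528), with widths of 110, 126, 87, 109 and 108 bp. A group of 4 spanned 9.23 kb (chr5:104862213-104871444). It opened with the narrowest peak of the window, 25 bp wide (chr5:104862213-104862237), followed 8.23 kb further by peaks of 242, 103 and 117 bp within 1114 bp. Pairs of peaks lay at chr5:104669083-104669808 and chr5:104836708-104837056, and 1 peak inside the lower edge paired with the peak just outside it. The lone peaks were chr5:104680912-104681065, chr5:104693739-104693767 and chr5:104787838-104787959, which were 154, 29 and 122 bp wide.

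The peaks of this window leaned to its upper part. The longest stretch without a peak ran for 62.9 kb between the centres of chr5:104693739-104693767 and chr5:104756569-104756678. Below that gap lay 5 peaks and above it 25. Of 97781 gaps between neighbouring autosomal centres, 7.01% were at least as long. The gap here is the longest of 29 in the window. Of 26 bins of 10 kb, 11 held no peak and the fullest held 4. The autosomal share of empty bins is not given. A stretch of 10 kb free to start at any peak held at most 5 peaks, and 4 starting points reached that number. Of 240015 fixed autosomal tiles of 10 kb, 2376 (0.990%) held 5 or more.

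In the Vegfa window the peaks formed fewer and fuller groups. Its 32 peaks formed 6 groups, of which 2 were lone peaks, against 18660 of 37573 groups on the autosomes. One of the 6 held 17 peaks in 31.2 kb (chr17:46141287-46172450). Groups of 17 or more made up 0.953% of the autosomal groups and held 9.99% of the autosomal peaks. The fullest 10 kb held 9 peaks, or 28.1% of those in the window, from chr17:46147396-46147823 to chr17:46155603-46156073. It spanned 8.68 kb with 2233 bp under peaks. A start at the next peak, chr17:46148296-46148356, also reached 9. Of the same fixed tiles of 10 kb, 245 (0.102%) held 9 or more. Of the window's own 22 fixed bins of 10 kb, the fullest held 7. The 9 here and the 5 in the Ibsp and Spp1 window are each the most from any start, whereas each tile is a single stretch. For both windows, a tile at a fixed place is a stricter frame than a stretch free to start at any peak, so the count of tiles understates how many such stretches there are. The contrast with the Ibsp and Spp1 window depends on the close peaks and on the part of the list. Once peaks within 1000 bp were merged, the fullest 10 kb held 5 regions in the Vegfa window and 4 in the Ibsp and Spp1 window. In the first 50% of the list these numbers were 3 and 4 peaks, and in the last 50% they were 6 and 3.

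The 9 peaks were 428, 61, 126, 488, 179, 159, 160, 161 and 471 bp wide in order of position. Peaks of over 400 bp thus stood at both ends of this stretch and, with chr17:46150965-46151452, in its middle. The equally full stretch from the next peak begins with the peak of 61 bp and ends with one of 150 bp. It leaves out the peak of 428 bp. After the 9 peaks came that peak of 150 bp and, past a gap of 9.46 kb, 6 peaks from chr17:46167115-46167204 to chr17:46172395-46172450. Those 6 were 90, 134, 129, 365, 185 and 56 bp wide. The group opened with chr17:46141287-46141414, which lay 6.26 kb before the 9.

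A second group of 9 peaks followed over 34.6 kb (chr17:46185231-46219782) with wider spacing, and 4.01% of autosomal groups, with 23.2% of the peaks, held 9 or more. Its peaks were 95, 154, 59, 167, 480, 84, 88, 121 and 75 bp wide, the widest of them being chr17:46200995-46201474. The remaining peaks were few. A pair lay at chr17:46095199-46101701 and another at chr17:46261319-46266820. The lone peaks were chr17:46123712-46123969, 258 bp wide, and chr17:46241499-46241516, at 18 bp the narrowest of all 62. The longest distance between neighbours inside the window was 22.2 kb, from the peak at chr17:46101603-46101701 to that at chr17:46123712-46123969. Of the autosomal gaps between neighbouring centres, 22.0% were at least as long.

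**Figure D3:**
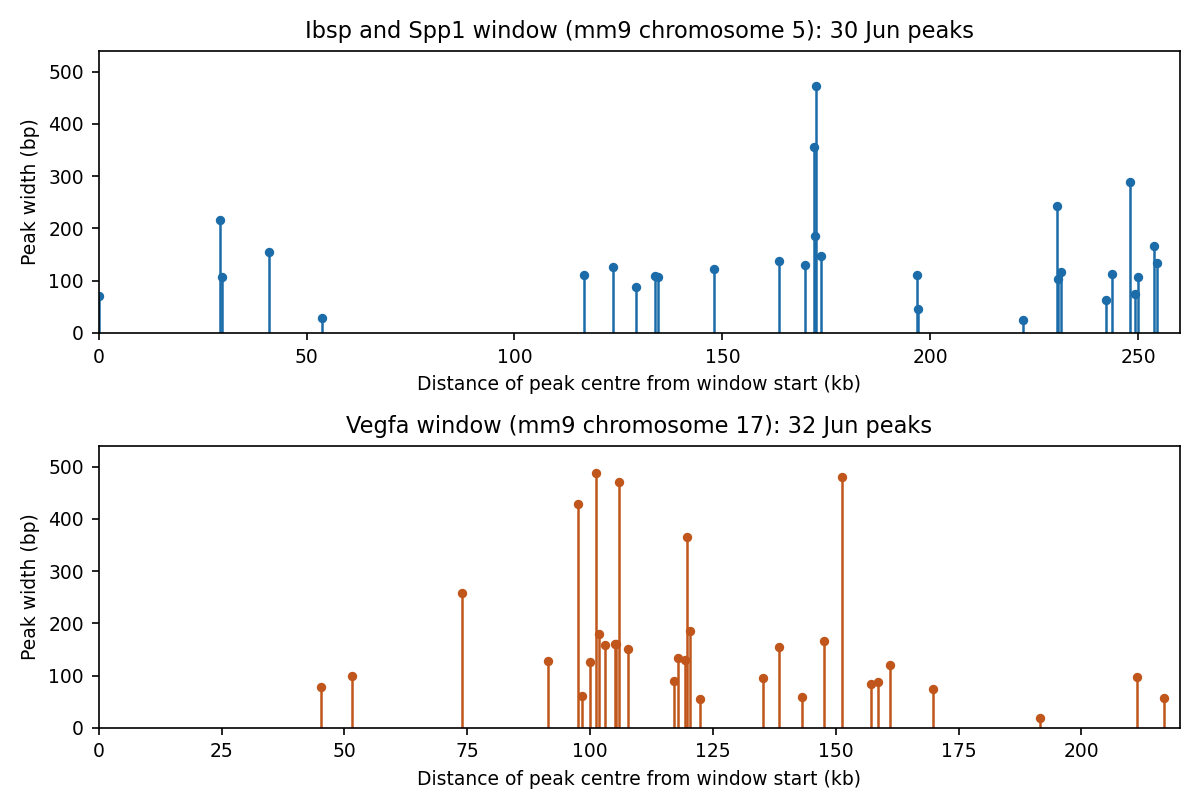
Position and width of every Jun peak in the Ibsp and Spp1 window (top, 30 peaks) and the Vegfa window (bottom, 32 peaks); each stem stands at the peak's centre, in kb from the window start, and its height is the width in bp. The chain of 356, 186 and 473 bp stands near 172 kb in the upper panel. In the lower panel 3 of the 4 peaks over 400 bp stand within the first of the 2 equally full stretches of 9 peaks in 10 kb.

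Most peaks of both windows had a close neighbour. In the Ibsp and Spp1 window 27 of 30 peaks (90%, 73.5 to 97.9) had another centre within 10 kb on either side, and in the Vegfa window 30 of 32 (93.8%, 79.2 to 99.2), against 80.9% of the autosomal peaks. The autosomal share lies inside both intervals. These treat peaks as independent, although 2 neighbours count each other, and the windows have 2.83 and 3.57 times the autosomal density. Whether closeness to a neighbour differs from that of autosomal peaks was therefore not tested. The distance from a centre to the next one above it, inside or outside the window, had a median of 4409.25 bp for Ibsp and Spp1. It was 2783.5 bp for Vegfa, against 5589.5 bp over the autosomes. Neighbours under 1 kb apart numbered 9 of 29 and 7 of 31 inside these windows. The autosomal share of such neighbours is not given, so these counts do not show closer spacing than usual.

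Median widths were close to that of the autosomal peaks, and 4 of the 5 peaks of 400 bp or wider lay in the Vegfa window. The median width was 114.5 bp in the Ibsp and Spp1 window (order-statistic interval 108 to 138) and 128.5 bp in the Vegfa window (90 to 161), against 114 bp over the autosomes. Peaks of 200 bp or wider were 5 of 30 (16.7%, exact binomial interval 5.64 to 34.7) and 6 of 32 (18.8%, 7.21 to 36.4), against 14.0% of autosomal peaks. Neither interval leaves out the autosomal share.

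Peaks of 400 bp or wider were 1 of 30 in the Ibsp and Spp1 window (3.33%, 0.0844 to 17.2) and 4 of 32 in the Vegfa window (12.5%, 3.51 to 29.0), against 3.10% of autosomal peaks. Of the tiles of 220 kb, 0.854% held 4 or more such peaks. Of those of 260 kb, 20.3% held at least 1. The limit of 400 bp was picked after the widths had been seen, so the Vegfa share is a description and not a test. Where the limit was 300 bp, the share was 15.6% (5.28 to 32.8) for Vegfa, against 7.15% of autosomal peaks, and the autosomal share fell inside the interval.

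Peaks under 50 bp, shorter than the sheared fragments of 100 to 600 bp, numbered 3 of 30 in the Ibsp and Spp1 window (10%, 2.11 to 26.5). The Vegfa window had 1 of 32 (3.13%, 0.0791 to 16.2), against 6.30% of autosomal peaks.

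**Figure D4:**
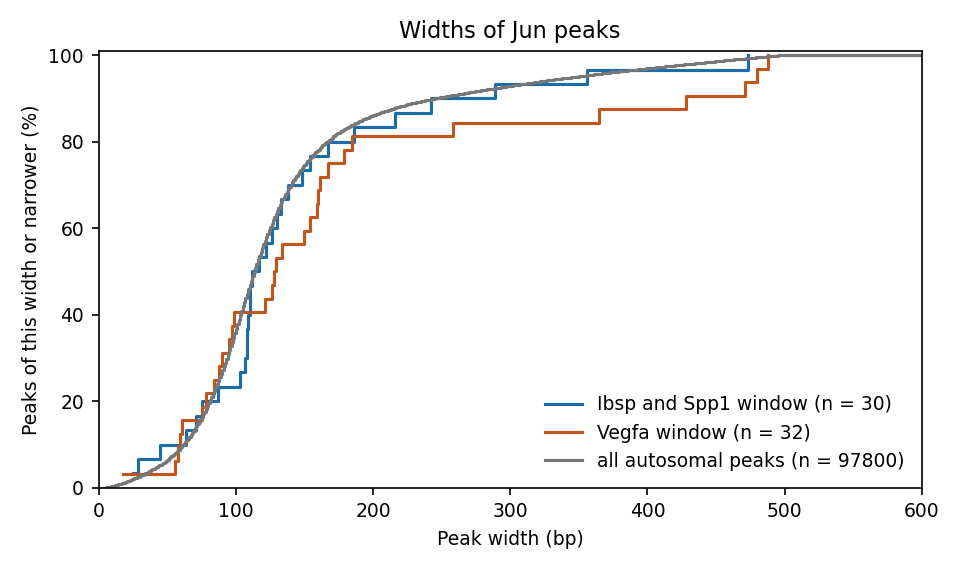
Cumulative share of Jun peaks by width in bp in the Ibsp and Spp1 window (n = 30), the Vegfa window (n = 32) and on all autosomes (n = 97800). The lower quartile of width is 104 bp in the Ibsp and Spp1 window and 87 bp in the Vegfa window, against 88 bp on the autosomes, and 4 of the 32 Vegfa peaks are 400 bp or wider.

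The peaks of both windows were spread through the whole list. Its rows are not sorted by position, and what ranks them is not stated, so a place carries no known strength. In the Ibsp and Spp1 window the places ran from 1.23% to 99.3% of the list with a median of 45.2%, and in the Vegfa window from 8.08% to 97.9% with a median of 55.0%, against a median of 49.8% for autosomal peaks. In the first 10% of the list lay 2 of 30 peaks (6.67%, 0.818 to 22.1) and 1 of 32 (3.13%, 0.0791 to 16.2), against 10.1% of autosomal peaks.

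The earliest peaks of the Ibsp and Spp1 window were chr5:104882311-104882374 at row 1216, chr5:104809755-104809884 at row 2076 and chr5:104894401-104894533 at row 11659. They were narrow, 64, 130 and 133 bp wide, and 2 of them belonged to the group of 7. The last, at row 98428, was chr5:104887876-104888164 of the same group, 289 bp wide. The earliest of the Vegfa window were chr17:46197530-46197696 at row 8012, chr17:46208629-46208716 at row 11846 and chr17:46169214-46169342 at row 13545, which were 167, 88 and 129 bp wide. None of these 3 lay among the 9 peaks of the fullest 10 kb, of which the median place was 62.7% of the list. The last peak of the Vegfa window, at row 97081, was the 471 bp peak that closes those 9.

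Wide peaks lay late in the list more often than early. In the Vegfa window 5 of 17 peaks in the last 50% of the list were 200 bp or wider (29.4%), and 1 of 15 in the first 50% (6.67%). In the Ibsp and Spp1 window these numbers were 4 of 14 (28.6%) and 1 of 16 (6.25%). Over the autosomes the shares were 19.0% and 9.10%, the same direction. Of the 4 Vegfa peaks of 400 bp or wider, 3 were in the last 50% of the list (75%), close to the 65.1% of autosomal peaks of that width. The widest peak of the Ibsp and Spp1 window went the other way, at 16.4% of the list.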

How the data were processed

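The Jun library was made, per the labels' protocols, from 20000000 cells cross-linked for 10 minutes in 1% formaldehyde, with chromatin sheared to 100 to 600 bp, 9 μg of antibody and 18 PCR cycles. The deposited list holds only peak positions, a unit of other kind with no counts, on mm9 per the submitters' processing notes. Its name bears the letters FDR with a 1, and no label gives the unit of that threshold. Nothing on the aligner, the peak caller or the use of the input is given in the sources used here. The list was assigned to the Jun library because that is the only Jun sample.

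Members, gene list and motifs were chosen with earlier results of these data known. Positions are counted from 1. Tiles start in phase with each window, between the first and last peak of each autosome. Density intervals are exact Poisson, shares exact Clopper-Pearson, at 95%. No test was run, because 1 library gives no replicate. The named peaks are, per window, the 3 widest and the narrowest, the 3 earliest and the last in the list, the fullest 10 kb, overlapping and lone peaks, and those beside the longest gap and the window edges. Counting was tested on simulated data, and the motif search on short made-up sequences. Python 3.11.15, pandas 2.3.3, numpy 2.4.6, scipy 1.17.1 and matplotlib 3.10.9 were used. Promoters come from RefSeq, 1 per gene. Alternatives changed window edges, merged peaks within 1000 bp, dropped peaks under 50 bp or took part of the list.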

Additional observations from a re-analysis of the deposited data

How the results depend on the processing

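Of 96 alternative values, 71 stayed within their interval, or within 1.5 times for a number, and 25 moved. The alternatives to the tile shares and to the 400 bp limit were chosen after seeing the data. Medians of width stayed within their intervals in all 7 alternatives run in each window. Shares in the first 10% of the list stayed within their wide intervals. In the first 20%, which holds 20% of all peaks by construction, the shares were 16.7% for Ibsp and Spp1 and 15.6% for Vegfa. These are counted among the 71, but the interval they were set against is that of the 10% share. They therefore do not show whether that share is stable. With peaks within 1000 bp merged, the Ibsp and Spp1 window held 19 regions (73.1 per Mb), the fullest 10 kb of the Vegfa window held 5, and 12.2% and 3.31% of the tiles held as many regions as these windows. Fewer regions enter by construction. The first 50% of the list left 16 peaks (61.5 per Mb) for Ibsp and Spp1 and 15 (68.2 per Mb) for Vegfa. The last 50% left 14 (53.8 per Mb) and 17 (77.3 per Mb). The autosomal peaks divided into 49049 and 48751, so every density falls by construction. The 40.7 per Mb of the full list is therefore not the measure for these parts. In the first 50% the shares with a neighbour within 10 kb were 68.8% and 66.7% and the fullest 10 kb of Vegfa held 3. In the last 50% that share was 71.4% for Ibsp and Spp1, its fullest 10 kb held 3, and 0% of its peaks were 400 bp or wider. The fullest 10 kb of Vegfa held 6 in the last 50%. A neighbour within 5 kb was found for 75% of the Vegfa peaks, and within 20 kb for 100% in both windows. No autosomal share with a neighbour is given for a part of the list or for these 2 distances. The 80.9% of autosomal peaks holds for the full list at 10 kb only. A stretch of 20 kb held up to 8 peaks in the Ibsp and Spp1 window and up to 12 in the Vegfa window. Among tiles with at least 1 peak, 10.3% and 5.65% held as many peaks as these windows. No paired analysis was possible because the list comes from 1 library and no result comes from a test. Depth is unknown, so which weaker sites the list misses was not determined.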

Other observations

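Some peaks of a window stood within a few rows of each other in the list, including peaks that lay far apart on the chromosome. In the Ibsp and Spp1 window, chr5:104870331-104870572 and chr5:104693739-104693767 stood at rows 78192 and 78195, only 3 rows apart, with 177 kb between their centres. Likewise chr5:104871328-104871444 and chr5:104811957-104812312 stood at rows 79387 and 79391, with 59.3 kb between them. In the Vegfa window, where the pair was close on the chromosome too, the adjacent rows 81799 and 81800 held chr17:46200995-46201474 and chr17:46207221-46207304, with 6.03 kb between them. These pairs were noticed in the data.

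Counted over the list, 5 of 30 peaks of the Ibsp and Spp1 window (16.7%) and 7 of 32 of the Vegfa window (21.9%) had another peak of the same chromosome, at most 260 kb away, within 10 rows, against 12.9% of autosomal peaks. All 5 and all 7 were in the last 50% of the list, where they were 35.7% of the 14 and 41.2% of the 17 peaks of these windows, and none was in the first 50%. Over the autosomes the shares were 20.5% in the last 50% and 5.41% in the first 50%. These autosomal shares were not matched for peak density, which was 2.83 and 3.57 times the autosomal density in the 2 windows. They therefore do not show a trait of the windows beyond their density. What orders the rows is not stated, and the cause was not tested.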
